A study of Mus musculus with 19 samples.

Results

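The protein-coding genes of the cytosolic ribosome were followed in polyA RNA from 19 single mouse embryos. They were taken by name: protein-coding rows whose symbol starts with Rpl, Rps or Rplp and a digit, together with Rpsa, leaving out pseudogene names and the Rps6k kinases. The rule found 86 of 53379 gene rows. Of these, 77 encode canonical ribosomal proteins, 46 of the large 60S subunit (the P-stalk proteins Rplp0, Rplp1 and Rplp2 included) and 31 of the small 40S subunit. A further 8 are paralogs of canonical genes, and Rps19bp1 is named after a ribosomal protein without being one. The gene Fau, which carries a ribosomal protein behind a ubiquitin-like part, falls outside the name rule. In all, 85 members passed the filter of an FPKM of 1 or more in at least 2 embryos. Rpl3l, a striated-muscle paralog of Rpl3, did not pass: it had no count in 9 embryos and at most 9 counts in the others.

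The embryos came from in vitro fertilisation between parents heterozygous for a deletion (Alyref+/- with Alyref+/-, or Gabpb1+/- with Gabpb1+/-) or between wild-type (WT) B6D2F1 parents, and were collected 96 hours after insemination. Alyref encodes an adaptor of mRNA export and Gabpb1 a subunit of GABP, a transcription factor of the ETS family. From the Alyref cross came 2 morulae labelled Alyref KO (Alyref-/-) besides 3 morulae and 3 blastocysts without that label (non-KO). From the Gabpb1 cross came 3 morulae labelled Gabpb1 KO (Gabpb1-/-), and 2 morulae and 3 blastocysts of the non-KO class. The WT cross gave 3 blastocysts. Non-KO embryos of either heterozygous cross are WT or heterozygous, with no label to tell which. A morula is a compact ball of cells. A blastocyst has an outer trophectoderm, an inner cell mass and a cavity. Morulae and blastocysts were collected at the same age, so comparisons of stages set different embryos side by side and follow none over time. A fall or rise between stages below means a lower or higher level in the blastocysts. Which embryos were KO was called by the submitters from missing reads over the deleted region in these same libraries.

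Ribosomal proteins assemble with ribosomal RNA in the nucleolus into the subunits that the cell then exports to the cytoplasm. Their genes are among the most strongly transcribed housekeeping genes, and their mRNAs carry a pyrimidine tract at the 5' end (the TOP motif) through which mTOR signalling adjusts their translation. In the preimplantation embryo the zygotic genome takes over ribosome production from the stock that the oocyte left behind.

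Gene counts per embryo ran from 7.49 to 31.5 M. Alyref stood at 47.8 and 58.5 CPM in the morulae labelled Alyref KO and at 210, 291 and 161 CPM in that cross's non-KO morulae. Gabpb1 stood at 78.2, 259 and 151 CPM in the morulae labelled Gabpb1 KO against 93.8 and 83.3 CPM in the non-KO morulae, so counts over the whole gene were not lower there and do not check that label. CPM are counts relative to the embryo's gene counts after TMM scaling, and FPKM further divide by gene length. Each value is 1 embryo. No label gives a batch, a date or which embryos shared a fertilisation. The crosses had different parents, so cross and any batch cannot be told apart. Trophectoderm markers (Cdx2, Krt8, Krt18, Gata3, Eomes, Tfap2c, Krt7, Elf5) summed to 3963 to 6667 CPM in blastocysts and to 343 to 4032 CPM in morulae.

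The members took between 3.22% and 4.74% of all gene counts in an embryo. Per embryo the share was 3.84% and 4.74% in Alyref KO morulae, against 4.49%, 4.68% and 4.15% in that cross's non-KO morulae. It was 4.58%, 4.17% and 3.87% in morulae labelled Gabpb1 KO, against 3.50% and 3.71% in that cross's non-KO morulae. Every morula labelled Gabpb1 KO thus lay above both of its non-KO counterparts, while the Alyref KO morulae lay on either side of theirs. The share was 3.49%, 3.42% and 3.98% in blastocysts of the Alyref cross, 3.53%, 3.90% and 3.22% in those of the Gabpb1 cross and 4.25%, 3.25% and 3.89% in WT blastocysts. The 3 blastocyst groups overlapped, and all 3 Alyref cross blastocysts lay below the 3 non-KO morulae of that cross. These are whole embryos, so that fewer cells of a type and less RNA per cell cannot be told apart.

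**Figure D1:**
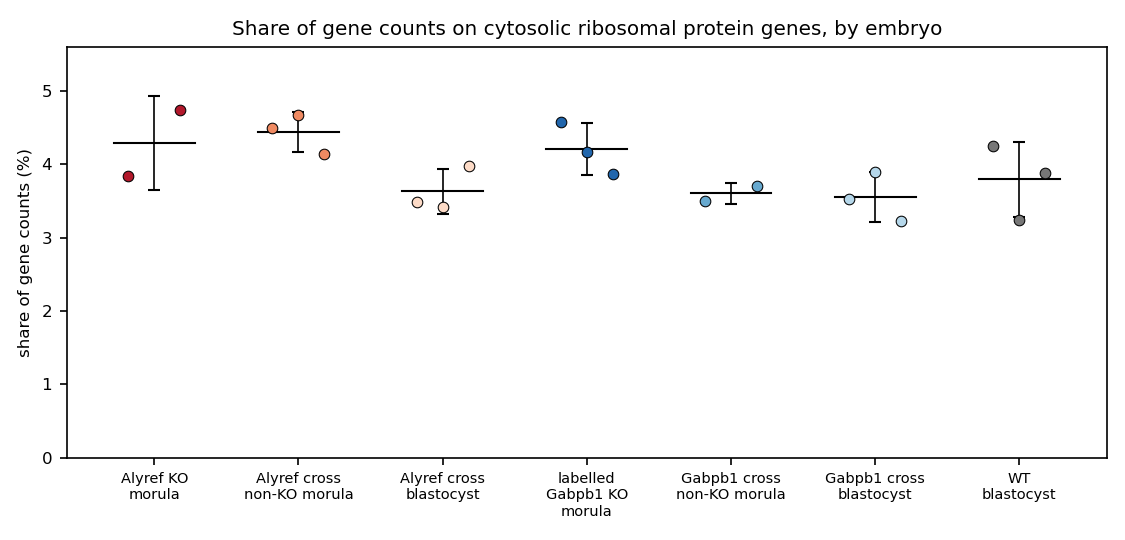
Share of gene counts (%) on the 86 ribosomal protein genes, 1 point per embryo, by group, with the group mean (long bar) and SD (error bar). Morulae of the Gabpb1 cross without the KO label sit at 3.50% and 3.71%, below the 3 labelled KO at 3.87% to 4.58%.

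Levels differed widely between members. Per length, the mean over the 19 embryos had a median of 228 FPKM over the canonical genes, beside 4.02 FPKM for all genes tested. Rps29 (1220 ± 319 FPKM, SD, n = 19), Rpl41 (1149 ± 489 FPKM) and Rplp1 (998 ± 235 FPKM) were among the highest. Rps15a (30.6 ± 7.07 FPKM), Rpl27a (56.2 ± 7.79 FPKM) and Rps12 (66.2 ± 12.2 FPKM) were lowest. The lengths used are those of all annotated exons merged, 6270 bases for Rps15a and 693 for Rps29, so a gene with long minor isoforms reads low on this scale. The median over 60S and stalk genes was 203 FPKM and over 40S genes 272 FPKM. Summed CPM of the 60S and stalk genes over that of the 40S genes stayed between 1.20 and 1.43.

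Most members varied little from embryo to embryo. The median SD of log2(CPM + 1) over the 19 embryos was 0.27 for canonical genes, beside 0.41 for the 2951 genes tested that lie in the same FPKM range. Only the ends of that range were matched, not the levels within it, so a part of level in this difference was not tested. Rpl14 (SD 0.14), Rpl37a (0.17) and Rpl32 (0.17), all of the 60S subunit, had the lowest SD among them. The stalk protein gene Rplp0 (SD 0.55), Rpl41 (0.51), which encodes a very short basic peptide of the ribosome, and Rpl5 (0.42), whose product enters the 60S subunit with the 5S RNA, varied most among the canonical genes. Rplp0 (chromosome 5, 115559467 to 115563727, plus strand, build GRCm38/mm10, as for all gene positions given) stood at 592, 1739 and 1363 CPM in morulae labelled Gabpb1 KO and at 1173 and 1180 CPM in that cross's non-KO morulae. Its stalk partner Rplp1 stood at 635, 808 and 486 CPM and at 416 and 399.9 CPM in the same embryos. The labelled KO morulae were all above the others for Rplp1, and for Rplp0 they spread to both sides.

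**Figure D2:**
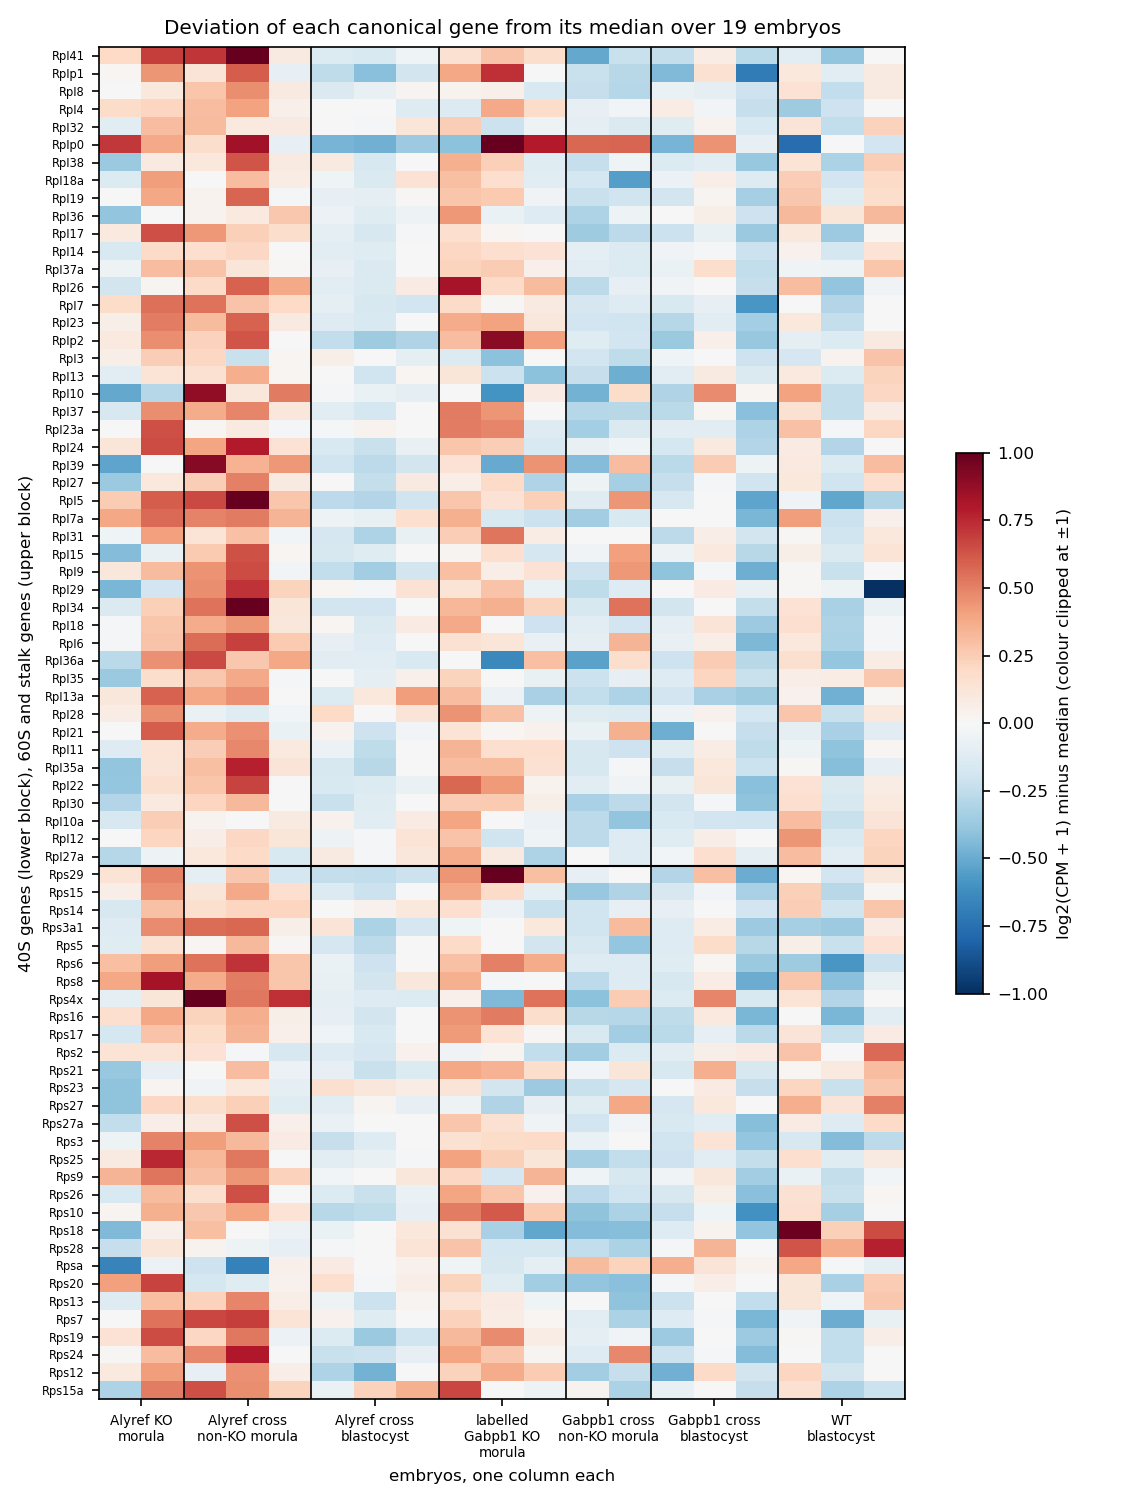
Deviation of log2(CPM + 1) from the gene's median over 19 embryos, for the canonical genes (rows, 1 gene not drawn, 60S and stalk above the line, 40S below, each sorted by mean FPKM) and the embryos (columns, by group). Red is above and blue below the median: of the 77 canonical genes, 71 are above it in the second Alyref cross non-KO morula and 3 in the first Gabpb1 cross non-KO morula. The second Alyref cross non-KO morula had the lowest TMM factor of the series (0.87).

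Many canonical genes were high or low in the same embryos. Of the 77 canonical genes, 69, 71 and 51 were above their own median in the 3 Alyref cross non-KO morulae, and 3 and 16 in the Gabpb1 cross non-KO morulae. The figures were 32 and 70 in Alyref KO morulae and 68, 52 and 38 in morulae labelled Gabpb1 KO. Among blastocysts they were 13, 9 and 31 in the Alyref cross, 2, 48 and 3 in the Gabpb1 cross and 60, 7 and 50 in the WT group, so that counts within 1 group spread from 2 to 48 (Gabpb1 cross) and from 7 to 60 (WT).

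Rpsa, a 40S protein also known as a laminin receptor, had another order across the morulae. It stood at 311 and 474 CPM in Alyref KO morulae, 426, 308 and 511 CPM in that cross's non-KO morulae, 480, 442 and 461 CPM in morulae labelled Gabpb1 KO and 614 and 576 CPM in the Gabpb1 cross non-KO morulae. The last pair was above every other morula. Rpsa did not pass the test in any comparison made here.

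In the morulae labelled Gabpb1 KO, members had mostly higher means than in the 2 non-KO morulae of the cross with TMM scaling (with ERCC spike-in scaling their median was -0.15 and that of all genes -0.40), but none passed the threshold. The count called was 0 of 85, where 1.65% of the 18410 genes tested were called; 19 members had an unadjusted p under 0.05 with a higher level in the labelled KO (8.64% of genes tested) and none with a lower one (10.2%), and DESeq2 called 3, beside 8.1% of all genes it tested. The median log2 fold change was 0.27 over members and 0.06 over all genes tested, and 75 members were above 0. In 43 of 85 every labelled KO embryo was above both others, beside 15.8% of genes tested. Rpsa alone lay wholly below, beside 16.4%. The 60S and stalk genes had a median of 0.27 (42 of 46 above 0) and the 40S genes one of 0.28 (28 of 31). In simulated data for this comparison the test recovered 6% of the genes given a log2 change of 1 and 58% of those given 2. Those genes were drawn from all but the least abundant genes tested. Most members are far more abundant (canonical median 228 FPKM, beside 4.02 FPKM for all genes tested), so these shares need not hold for them. No member differed by more than 0.83.

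Rps10 (chromosome 17, 27630422 to 27636629, minus strand), a protein of the 40S head that is ubiquitinated when ribosomes collide, had the smallest p. It stood at 521, 560 and 439 CPM in morulae labelled Gabpb1 KO and at 276 and 293 CPM in the non-KO morulae. The groups did not overlap, and the labelled KO embryos overlapped with the Alyref cross non-KO morulae (440, 480 and 402 CPM). Its log2 fold change of 0.83 (SE 0.20) had an adjusted p of 0.051. Rps16, a 40S protein whose tail contacts the transfer RNA in the P site, stood at 548, 574 and 452 CPM against 331 and 328 CPM (log2 fold change 0.67, SE 0.20, adjusted p 0.0903). The stalk gene Rplp2 stood at 643, 972 and 688 CPM against 476 and 455 CPM (0.72, SE 0.23, adjusted p 0.11). Rps6, the 40S protein phosphorylated by S6 kinases, stood at 751, 871 and 794 CPM against 561 in both non-KO morulae (0.52, SE 0.17, adjusted p 0.131). For these 3 genes, too, the groups did not overlap. With DESeq2, with genes tested at an FPKM of 5 or more and without the first labelled KO morula, Rps10 passed the threshold (adjusted p 0.00429, 0.0406 and 0.0486), and over all alternatives its adjusted p ran from 0.00429 to 0.91.

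The sum of the trophectoderm markers moved with this comparison. Their sum was 2476, 343 and 1013 CPM in morulae labelled Gabpb1 KO and 4032 and 2537 CPM in the non-KO morulae. Most of the sum in the non-KO morulae was Krt8 (961 to 1567 CPM) and Krt18 (1336 to 2069 CPM). No labelled KO embryo reached the others in the sum, 7 of the 8 markers had a lower mean in the labelled KO with none called, and none of the 8 was at 0 in these embryos. Singly, Krt8, Krt7 and Eomes did not overlap between the groups, while Krt18, Cdx2, Gata3, Tfap2c and Elf5 did. Epiblast markers summed to 497, 380 and 463 CPM against 395 and 213 CPM, groups that overlapped, with 4 of 6 higher in mean, none called and Sox2 at 0 in 1 labelled KO embryo. The part of these lists in the differences of the members was not tested.

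GABP binds the ETS core CCGGAAG, and its letters stand in many promoters of the family. RefSeq promoter sequences (GRCm38.p6, 250 bases before to 50 after the start) were found for 66 of 86 members, and 26 of them (39.4%) hold CCGGAAG on either strand, beside 21.3% of 8809 protein-coding genes tested and 13.3% of all 16403 with a sequence. The shorter CGGAAG was in 66.7%, 36.5% and 24.2%, the longer CCGGAAGT in 18.2%, 9.84% and 5.92%, and CCGGAAGTG in 1.52%, 5.32% and 3.14%. These motifs overlap each other by construction, and the share of the longest was lower in members than in other genes. AAGATGGC, the core of YY1 sites, was in 9.09% of members and 5.52% of genes tested, and TATAAA in 10.6% and 8.7%. A run of 6 or more pyrimidines within 10 bases of the start was in 59.1% of members and 33.1% of genes tested. A match is a description of letters, not a binding site.

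Shown are the promoters (GRCm38.p6) of the 4 members with the smallest p in the Gabpb1 comparison, described above, and of Rps25 (log2 fold change 0.55) and Rpl37 (0.62), which also hold the motif, from 160 bases before to 10 after the annotated start, 5' to 3' on the gene's strand. Capitals mark CCGGAAG, or CTTCCGG where the match is on the other strand. The match starts at position -29 in Rps10 (chr17:27635235-27635404 on the minus strand), -91 in Rps6 (chr4:86857358-86857527 on the minus strand), -108 in Rplp2 (chr7:141447491-141447660 on the plus strand), -73 in Rps25 (chr9:44407554-44407723 on the plus strand) and -23 in Rpl37 (chr15:5116453-5116622 on the plus strand), counted from the start, and Rps16 (chr7:28350529-28350698 on the plus strand) has none.
Rps10: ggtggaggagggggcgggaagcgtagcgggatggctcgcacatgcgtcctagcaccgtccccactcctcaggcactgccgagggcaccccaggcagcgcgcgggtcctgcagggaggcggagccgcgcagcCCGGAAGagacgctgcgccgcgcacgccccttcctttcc
Rps6: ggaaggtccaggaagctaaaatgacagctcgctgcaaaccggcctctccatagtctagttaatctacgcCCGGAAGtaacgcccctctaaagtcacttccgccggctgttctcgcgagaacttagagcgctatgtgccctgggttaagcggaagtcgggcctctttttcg
Rplp2: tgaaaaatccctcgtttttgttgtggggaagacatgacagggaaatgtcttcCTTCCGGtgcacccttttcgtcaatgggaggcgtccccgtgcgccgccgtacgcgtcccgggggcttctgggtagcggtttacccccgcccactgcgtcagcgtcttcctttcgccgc
Rps25: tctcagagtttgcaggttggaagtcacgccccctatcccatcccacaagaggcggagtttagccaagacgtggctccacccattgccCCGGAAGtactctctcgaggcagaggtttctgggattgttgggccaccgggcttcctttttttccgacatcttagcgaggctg
Rpl37: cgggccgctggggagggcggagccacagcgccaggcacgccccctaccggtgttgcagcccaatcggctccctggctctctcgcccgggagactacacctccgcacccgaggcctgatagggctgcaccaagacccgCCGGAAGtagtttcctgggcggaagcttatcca
Rps16: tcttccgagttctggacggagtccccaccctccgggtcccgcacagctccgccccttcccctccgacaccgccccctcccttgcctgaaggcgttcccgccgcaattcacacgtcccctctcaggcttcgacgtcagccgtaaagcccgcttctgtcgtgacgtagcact
Rps10 has a run of 13 pyrimidines starting 3 bases before its start, and Rps6 and Rplp2 one of 10.

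Members with and without the letters overlapped in their fold changes. In the Gabpb1 comparison the median log2 fold change was 0.28 over the 26 members with CCGGAAG (21 above 0, range -0.37 to 0.83) and 0.24 over the 39 tested members without it (35 above 0, range -0.34 to 0.67). The difference was not tested.

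In the Alyref KO morulae no member passed the threshold. The count called was 0 of 85, beside 0.228% of genes tested; 2 members had an unadjusted p under 0.05 with a higher level (5% of genes tested) and 8 with a lower one (7.08%), and DESeq2 called 2, beside 3.31% of all genes it tested. The median log2 fold change was -0.13 over members and -0.04 over all genes tested, with 25 members above 0 and 60 below. In 3 members both KO embryos were above the 3 non-KO morulae (12.5% of genes tested) and in 10 both were below (12.3%), shares under the background. The median was 0.06 without the first Alyref KO morula, -0.35 without the second, and -0.02 and -0.21 without the second and the third non-KO morula.

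Rpl22l1 (chromosome 3, 28805436 to 28807424, plus strand), the paralog of Rpl22 that can take its place in the 60S subunit, had the smallest p. It stood at 48.8 and 89.3 CPM in Alyref KO morulae and at 24.5, 31.4 and 39.6 CPM in the non-KO morulae. The groups did not overlap, and Alyref cross blastocysts (52.3, 51.8 and 58.8 CPM) lay at the level of the lower KO embryo. Its log2 fold change of 1.12 (SE 0.32) had an adjusted p of 0.153. It was 0.59 without the second KO morula, and DESeq2 called it (adjusted p 0.0319; range over the alternatives 0.0319 to 1). Its parent Rpl22 stood at 178 and 260 CPM against 281, 372 and 232 CPM, which is -0.43 on the log2 scale (SE 0.24, adjusted p 0.5). Rps20, a protein of the 40S head, stood at 756 and 913 CPM against 504, 524 and 588 CPM (0.63, SE 0.19, adjusted p 0.173).

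The 4 X-linked members had lower means in the Alyref KO morulae. Rpl10, which completes the maturation of the 60S subunit, stood at 311 and 363 CPM against 821, 479 and 636 CPM (log2 fold change -0.94, SE 0.30, adjusted p 0.202). Rps4x, the X-encoded 40S protein, stood at 464 and 534 CPM against 986, 709 and 819 CPM (-0.75, SE 0.29, adjusted p 0.293). Rpl39 differed by -0.83 (SE 0.30, adjusted p 0.26) and Rpl36a by -0.31 (SE 0.30, adjusted p 0.749). None of the 4 passed the threshold, and Rpl36a turned to 0.01 without the first KO morula.

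The share of these 4 genes differed with the presence of Y-linked reads across the series. Together they made up 2.36% to 4.35% (median 3.63%) of canonical member CPM in the 13 embryos with reads on Ddx3y, Eif2s3y, Kdm5d and Uty (1162 to 9230 counts), and 4.45% to 5.92% (median 4.89%) in the 6 embryos with 0 to 2 such counts. The 2 sets, which were formed from the reads and not from a label, did not overlap. Both Alyref KO morulae had Y-linked reads, and of the 3 Alyref cross non-KO morulae the second alone did. In a fit with Y-linked reads as a covariate, added after seeing the data, Rpl10 differed by -0.57, Rpl39 by -0.50, Rps4x by -0.42 and Rpl36a by -0.03 in the Alyref KO comparison. The autosomal canonical genes had a median of -0.10 in the fit without the covariate. The first WT blastocyst had both Xist (273 CPM) and Y-linked reads (2550 counts), and its X-linked share of 4.35% was the highest of the 13.

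**Figure D3:**
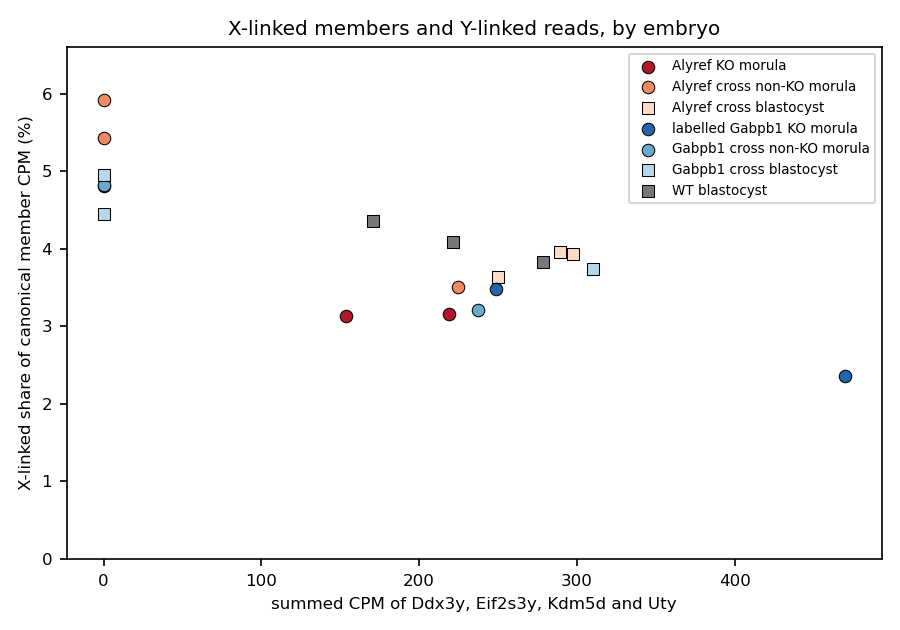
X-linked share of canonical member CPM (%) against summed CPM of 4 Y-linked genes, 1 point per embryo (circles morulae, squares blastocysts, colour by group). The 6 embryos with at most 2 Y-linked counts, at the left, lie at 4.45% and above, and the other 13 at 4.35% and below.

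The difference between the 2 KO comparisons was tested directly. The median of the difference (Gabpb1 minus Alyref) was 0.39 over members and 0.12 over all genes tested, with 77 of 85 above 0, but with ERCC scaling it was -0.05 and -0.33. No member was called (0.907% of genes tested were), 22 had an unadjusted p under 0.05 above 0 (8.8% of genes tested) and 1 below (8.04%), and DESeq2 called 1, beside 5.77% of all genes it tested. Rpl26, a 60S protein near the exit tunnel, had the smallest p with a difference of 1.11 (SE 0.32, adjusted p 0.106), followed by Rps10 with 0.90 (SE 0.29, adjusted p 0.138).

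Between non-KO morulae and blastocysts of the Alyref cross, 10 members passed the threshold, all lower in the blastocysts. The 10 of 85 compare with 13% of genes tested called in either direction and 7.43% called lower. The median log2 fold change was -0.34 over members and -0.04 over all genes tested, 78 members were below 0, 37 had an unadjusted p under 0.05 below 0 (17.1%) and 1 above (14%), and 55 lay lower without overlap (19.2% of genes tested), against 2, Rpl22l1 and Rpl28, that lay higher (19.6%). The 60S and stalk genes had a median of -0.36 and the 40S genes one of -0.31. Trophectoderm markers rose in the same comparison, from 595 to 1860 CPM summed in the morulae to 4104 to 6667 CPM in the blastocysts, with 7 of 8 higher in mean, Krt7, Krt8 and Krt18 called higher and Tfap2c called lower. Elf5 was at 0 in 1 of the morulae. Epiblast markers (Nanog, Pou5f1, Sox2, Klf2, Fgf4, Tdgf1) moved the other way, from 635, 599 and 714 CPM summed in the morulae to 372, 293 and 373 CPM in the blastocysts, with 5 of 6 lower in mean and Nanog, Klf2 and Pou5f1 called lower. Sox2 was at 0 in 1 of the morulae. The part of both lists in the members' fall was not tested.

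The falls included 2 paralogs. Rpl7l1 (chromosome 17, 46773907 to 46782656, minus strand), a relative of Rpl7, stood at 365, 428 and 289 CPM in the morulae and 196, 185 and 173 CPM in the blastocysts. The fall was larger than the spread between embryos (log2 fold change -0.97, SE 0.18, adjusted p 0.0078). Rpl39l (chromosome 16, 10170226 to 10174911, plus strand), the paralog of Rpl39 known for its abundance in male germ cells, stood at 202, 422 and 137 CPM against 117, 82.8 and 99.5 CPM (-1.34, SE 0.40, adjusted p 0.0401), and without the second morula the difference was -0.72 (adjusted p 0.27). Its parent Rpl39, which is X-linked, differed by -0.80 (SE 0.26, adjusted p 0.0548). Rpl10l (chromosome 12, 66283379 to 66284401, minus strand), a retrogene of Rpl10 needed in male meiosis, stood at 149, 245 and 179 CPM against 49.3, 97 and 75.4 CPM and missed the threshold (-1.37, SE 0.45, adjusted p 0.0539).

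Among canonical genes Rpl41 had the largest called fall. Rpl41 (chromosome 10, 128548114 to 128549305, minus strand) stood at 1931, 3931 and 1252 CPM in the morulae and 1073, 1058 and 1144 CPM in the blastocysts, with the second morula above the others (-1.12, SE 0.30, adjusted p 0.0257). Without that morula the difference was -0.50 (adjusted p 0.177). Rpl5 stood at 1006, 1370 and 774 CPM against 530, 521 and 555 CPM (-0.97, SE 0.22, adjusted p 0.0143). Rps6 stood at 894, 1010 and 744 CPM against 584, 532 and 613 CPM (-0.61, SE 0.15, adjusted p 0.0218). No blastocyst reached any morula for Rpl5 or Rps6. Rps4x fell by 0.89 on the log2 scale (adjusted p 0.0332), and by 0.52 (adjusted p 0.127) with Y-linked reads as a covariate. The called falls also included Rpl34, Rpl9 and Rpl6 of the 60S subunit, which the naming rule did not single out, with log2 fold changes from -0.74 to -0.58.

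How many members were called here rested on single embryos and on scaling. Leaving out 1 of the 6 embryos gave 3, 1 and 24 calls without the first, the second and the third morula and 1, 1 and 3 without the first, the second and the third blastocyst. The third morula also had the highest trophectoderm marker sum of the 3 (1860 CPM, against 596 and 595 CPM). With DESeq2 19 members were called (1 higher, 18 lower), beside 22.7% of all genes it tested, and with scaling to the ERCC spike-in RNA or with these 2 groups fitted alone none was. The median under ERCC scaling was -0.58, beside -0.34 for all genes. Stage and Y-linked reads were also unbalanced here. All 3 blastocysts had such reads (9230, 4665 and 2632 counts), and of the 3 morulae the second alone did (1, 2663 and 2 counts). With Y-linked reads as a covariate, added after seeing the data, 6 members were called.

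The promoters of the called genes Rpl41 and Rpl39l are shown because both hold CCGGAAG (capitals), once in Rpl41 from position -56 (chr10:128549159-128549328 on the minus strand) and in Rpl39l from positions -146 and -92 (chr16:10170068-10170237 on the plus strand).
Rpl41: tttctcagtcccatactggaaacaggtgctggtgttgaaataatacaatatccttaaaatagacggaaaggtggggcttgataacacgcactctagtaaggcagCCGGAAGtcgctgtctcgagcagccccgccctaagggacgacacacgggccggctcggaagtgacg
Rpl39l: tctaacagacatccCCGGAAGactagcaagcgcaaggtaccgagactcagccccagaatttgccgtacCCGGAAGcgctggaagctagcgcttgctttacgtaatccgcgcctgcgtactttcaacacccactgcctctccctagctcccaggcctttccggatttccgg
Over this comparison, too, the medians were -0.42 over members with the letters and -0.34 over those without, a difference that was not tested.

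In the Gabpb1 cross the same comparison of stages gave no call. The count was 0 of 85 (0% of genes tested), 1 member had an unadjusted p under 0.05 above 0 (2.29%) and none below (4.43%), and DESeq2 called none; over all genes the unadjusted count was 1237 and DESeq2 called 57 (0.385%). The median was 0.04 over members and 0.02 over all genes tested, with 51 members above 0, and with ERCC scaling the medians were -0.84 and -0.86. In 11 members the blastocysts lay wholly above the morulae (11.4% of genes tested) and in 1, Rplp0, wholly below (11.7%). Rpl7l1 stood at 152 and 178 CPM in the morulae and 243, 171 and 214 CPM in the blastocysts, and Rpl41 at 825 and 1008 CPM against 998, 1237 and 976 CPM. Rps20 (0.42, SE 0.19, adjusted p 0.734) and Rps28 (0.40, SE 0.19, adjusted p 0.758), 40S proteins, had the smallest p-values and were below 0 under ERCC scaling. The difference between the stage effects of the crosses, a test added after seeing the data, had a median of 0.36 over members and 0.05 over all genes tested (-0.28 and -0.53 with ERCC scaling). No member was called (0.00543% of genes tested), 6 had an unadjusted p under 0.05 above 0 (7.28%) and none below (6.49%), and DESeq2 called 1, beside 2.07% of all genes it tested. Rpl7l1 had the smallest p, with a difference of 1.31 (SE 0.27, adjusted p 0.164).

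When non-KO morulae were compared across the 2 crosses, Rpl7l1 was the 1 member that passed the threshold. The members had a median of -0.45 in the Gabpb1 cross relative to the Alyref cross, beside -0.03 over all genes tested, and 80 of 85 were below 0, while with ERCC scaling the medians were 0.07 and 0.39. In 62 members both Gabpb1 cross morulae lay below all 3 of the Alyref cross (18.2% of genes tested), and in 1, Rpsa, above (17.9%). The test called 1 member, beside 1.86% of genes tested (0.674% lower); 37 had an unadjusted p under 0.05 below 0 (11.2%) and 1 above (11.2%). The member called was Rpl7l1, at 152 and 178 CPM against 365, 428 and 289 CPM (-1.13, SE 0.20, adjusted p 0.0282). Rpl41 stood at 825 and 1008 CPM against 1931, 3931 and 1252 CPM and missed the threshold (-1.37, SE 0.34, adjusted p 0.0519). Rpl41 passed in 6 of 14 alternatives, and without the second Alyref cross morula its difference was -0.75 (adjusted p 0.165; range over the alternatives 0.00401 to 0.763). DESeq2 called 8 members, beside 11% of all genes it tested. Leaving out any 1 of the first and second Alyref cross morulae and the 2 Gabpb1 cross morulae gave no call, and leaving out the third Alyref cross morula gave 8.

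These comparisons are not separate. The 2 non-KO morulae of the Gabpb1 cross serve in the KO, the stage and the cross comparisons, and the 3 of the Alyref cross do likewise. The medians side by side were 0.27 for the labelled Gabpb1 KO, 0.04 for the Gabpb1 cross stages, -0.13 for the Alyref KO, -0.34 for the Alyref cross stages and -0.45 between the crosses. The 2 Gabpb1 cross non-KO morulae enter the first, second and last of these values. Their member shares of gene counts (3.50% and 3.71%) were below those of every other morula. They lay within the range of that cross's blastocysts (3.22% to 3.90%). Log2 member counts per ERCC count were 2.49 and 2.54 in these 2 embryos. They were 1.07 to 3.18 in the labelled Gabpb1 KO and 1.58 to 2.80 in the Alyref cross non-KO morulae. The same 2 embryos had a higher trophectoderm marker sum (4032 and 2537 CPM, most of it Krt8 and Krt18) than any other morula. Gata3 (89.9 to 211 CPM) and Tfap2c (71.8 to 79.5 CPM) in these 2 embryos did not exceed all other morulae. Against the Alyref cross morulae 7 of 8 trophectoderm markers were higher in mean with Krt7 called, and 6 of 6 epiblast markers were lower in mean (395 and 213 CPM summed, against 599 to 714 CPM) with Nanog called. The part of these markers was not tested.

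**Figure D4:**
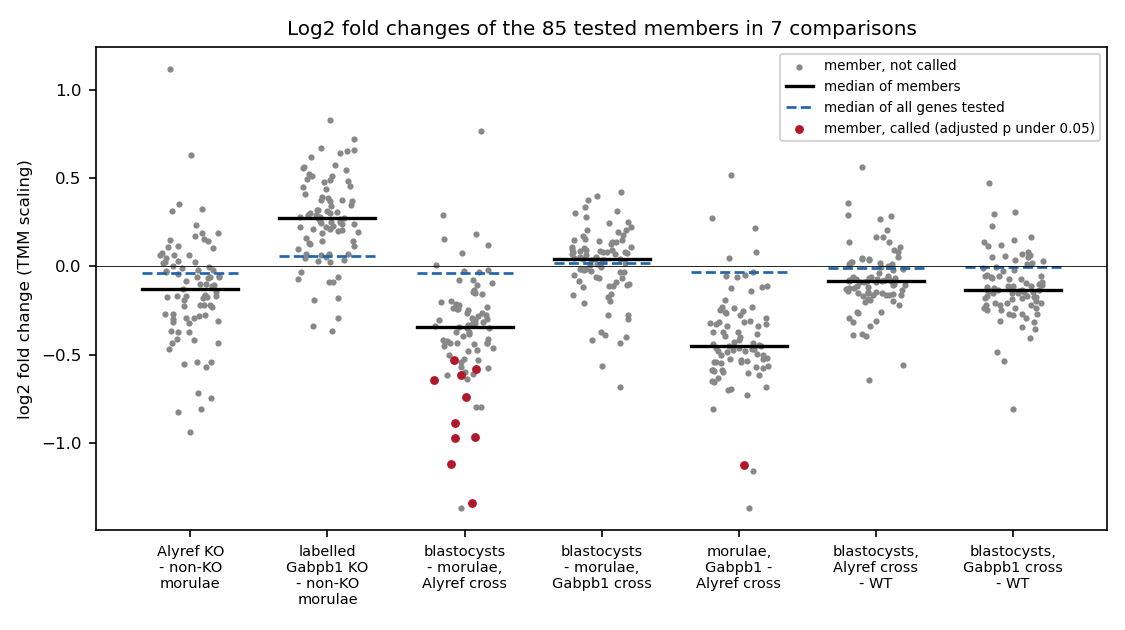
Log2 fold changes of the 85 tested members (points, red where called) in 7 comparisons, with the median over members (solid line) and over all genes tested (dashed line). With TMM scaling the member median sits at 0.27 for the labelled Gabpb1 KO, at -0.34 for the Alyref cross stages and at -0.45 between the crosses. With ERCC scaling the first and the last of these change sign (-0.15 and 0.07). ERCC reads made up 0.50%, 1.95% and 0.97% of counts in the labelled Gabpb1 KO morulae, and 0.62% and 0.63% in that cross's non-KO morulae. Whether this spread lies in the RNA of the embryos or in the spike-in was not tested.

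Spike-in scaling, against the RNA standards added to each embryo, shifts every gene of an embryo by the same factor. Members and all genes therefore shift nearly alike by construction, and the differences below are no separate result. The members' median minus that of all genes was 0.25 with spike-in scaling and 0.22 with TMM in the Gabpb1 KO comparison, and -0.33 and -0.42 between the crosses. For the Alyref cross stages these values were -0.24 and -0.31.

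Blastocysts of the heterozygous crosses were set against WT blastocysts. No member was called in either comparison (0% of genes tested in each); 3 members in the Alyref cross (1.6% of genes tested) and 2 in the Gabpb1 cross (2.61%) had an unadjusted p under 0.05 below WT, none above (1.34% and 3.49%), and DESeq2 called none. The medians were -0.08 and -0.13 over members and -0.0064 and -0.0013 over all genes tested. With ERCC scaling they were 0.09 and -0.09 over members and 0.15 and 0.0060 over all genes. Leaving out 1 embryo moved the member medians between -0.19 (without the second WT blastocyst) and -0.01 (without the first) in the Alyref cross, and between -0.23 (without the second WT blastocyst) and -0.06 (without the third Gabpb1 cross blastocyst) in the Gabpb1 cross. In 12 and 6 members the cross lay wholly below WT (6.15% and 6.33% of genes tested), and in 1, Rps6 in the Alyref cross, and none it lay wholly above (6% and 6.51%). Over all genes 541 and 1123 had an unadjusted p under 0.05, and DESeq2 called 15 and 42 (0.0817% and 0.238%). Primitive endoderm markers (Gata6, Gata4, Sox17, Pdgfra, Sox7, Foxa2) summed to 239 to 275 CPM in WT blastocysts. In the Alyref cross the sum was 124 to 172 CPM and in the Gabpb1 cross 139 to 212 CPM. All 6 were lower in each cross, with none called, while trophectoderm and epiblast sums overlapped with WT. The part of these markers was not tested. Rps18 and Rps28, proteins of the 40S head, had the smallest p in both comparisons, which share the WT embryos. Rps18 stood at 880, 525 and 701 CPM in WT blastocysts, at 425, 445 and 478 CPM in the Alyref cross and at 407, 456 and 338 CPM in the Gabpb1 cross. No other embryo reached any WT blastocyst except the first Alyref cross non-KO morula (548 CPM). The log2 fold changes were -0.64 (SE 0.22, adjusted p 1) and -0.81 (SE 0.22, adjusted p 0.579). For Rps28 they were -0.56 (SE 0.17, adjusted p 1) and -0.49 (SE 0.17, adjusted p 0.788), from 352, 295 and 391 CPM in WT blastocysts.

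The paralogs differed in how they stood beside their parents. Rps27l, a p53-responsive paralog, exceeded Rps27 in every embryo, by 2.91 to 7.18 times per length (mean 1121 and 279 FPKM). Rpl36al and Rpl36a were near each other (ratio 0.64 to 1.45). Rpl39l reached 0.43 to 2.09 times Rpl39, and Rpl10l 0.14 to 1.19 times Rpl10. Rpl22l1 stood at 0.12 to 0.50 times Rpl22 and Rpl7l1 at 0.20 to 0.43 times Rpl7. Rps27rt, a retrogene nearly identical to Rps27, kept a nearly fixed count ratio to it of 0.29 to 0.33, so reads of the 2 genes may be shared between them, and its values are uncertain. Rpl10l had the largest SD of log2(CPM + 1) of these, 0.86, followed by Rpl39l with 0.60 and Rpl22l1 with 0.53. Rpl10l stood at 150 and 216 CPM in Alyref KO morulae and at 136, 32.3 and 113 CPM in morulae labelled Gabpb1 KO, beside 34.8 to 64.8 CPM in WT blastocysts. Rps19bp1, a regulator of SIRT1 named after its binding to Rps19, differed by 0.39 (SE 0.23, adjusted p 0.377) in the Gabpb1 comparison and by -0.42 (SE 0.21, adjusted p 0.184) between the Alyref cross stages.

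**Figure D5:**
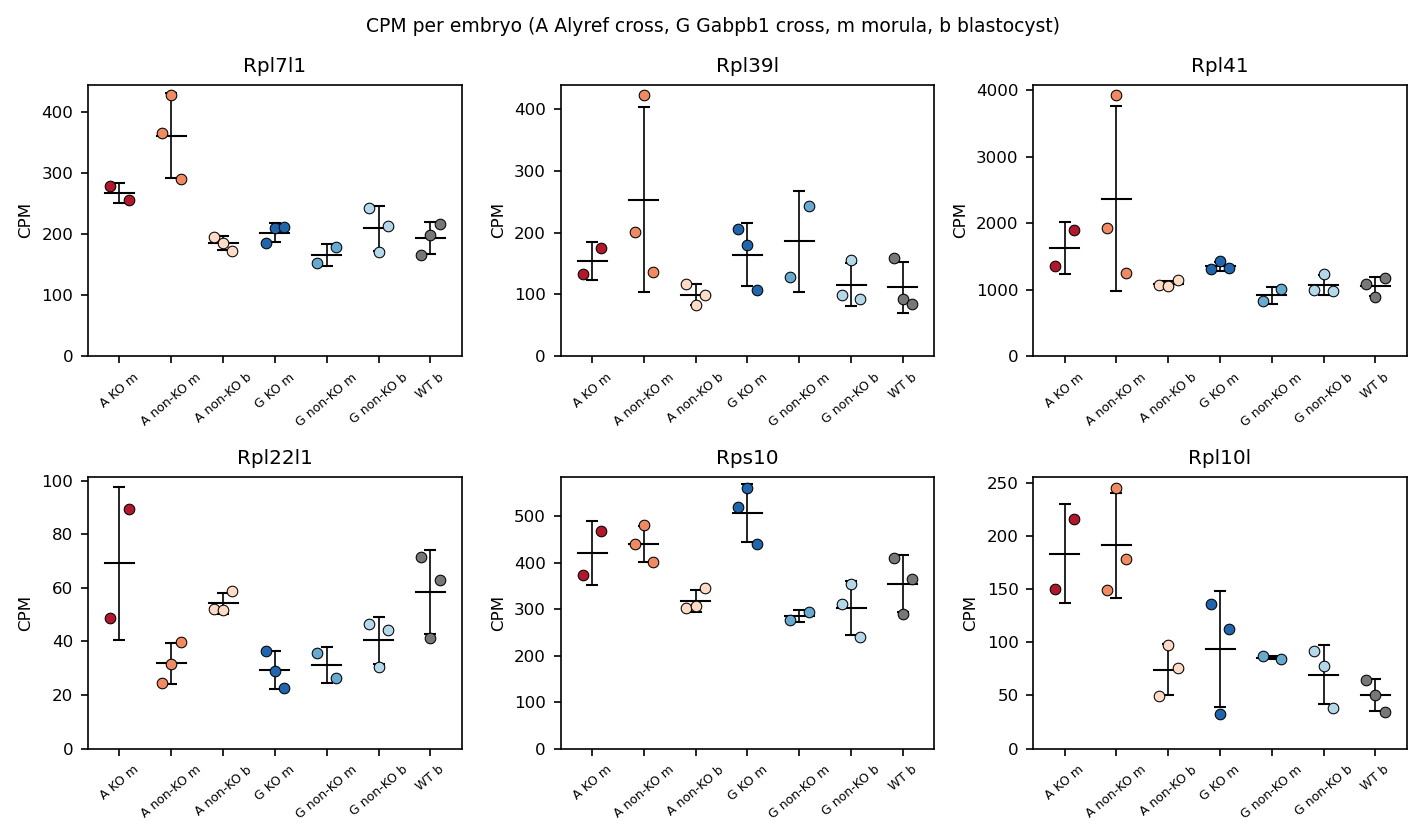
CPM per embryo of 6 members (points), with the group mean (long bar) and SD (error bar), for Alyref (A) and Gabpb1 (G) crosses, morulae (m) and blastocysts (b). Rpl41 reaches 3931 CPM in 1 Alyref cross non-KO morula, and Rps10 in morulae labelled Gabpb1 KO (439 to 560 CPM) lies above the non-KO morulae of that cross (276 and 293 CPM).

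Processed pseudogenes of the family are many, and 286 rows named Rpl or Rps held 0.85% to 1.23% of gene counts per embryo. How reads that map to several places were counted is not given in the sources used here, so members with near-identical copies carry that uncertainty.

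Other mRNAs of the TOP class and of ribosome-bound proteins, 18 genes with Fau, Rack1 and elongation factors, were counted in the same way. The values of this list are with TMM scaling, and those under the alternatives are not given here. Their median was 0.26 in the labelled Gabpb1 KO (12 above 0, none called), -0.17 in the Alyref KO (5 above 0, none called), -0.22 between the Alyref cross stages, 0.13 between the Gabpb1 cross stages and -0.41 between the crosses. Rack1, a scaffold on the 40S subunit, was the 1 of 18 called in each of the Alyref cross stage comparison (-0.59, adjusted p 0.0253, beside 7.43% of genes tested called lower) and the comparison of crosses (-0.78, adjusted p 0.0408, beside 0.674%).

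A list of 29 genes of ribosome biogenesis was read beside the members, with TMM scaling. Its values and calls under the alternatives are not given here. With ERCC scaling the median of all genes tested was -0.40 in the labelled Gabpb1 KO, beside 0.06 with TMM. Between the Alyref cross stages it was -0.34, beside -0.04, and between the crosses 0.39, beside -0.03. In the labelled Gabpb1 KO 26 of 29 were above 0 with a median of 0.48, and 2 were called, beside 1.65% of genes tested: Taf1d, of the RNA polymerase I factor SL1, rose by 1.31 (SE 0.28, adjusted p 0.0346) and Nhp2, of the H/ACA particles, by 1.13 (SE 0.24, adjusted p 0.0345). None was called in the Alyref KO, where the median was -0.09. Between the Alyref cross stages 27 of 29 were below 0 with a median of -0.54, and 11 were called, all lower, beside 7.43% of genes tested, with the largest falls in Rrn3, an initiation factor of RNA polymerase I (-1.45, adjusted p 0.0342), Utp4 of the small subunit processome (-1.43, adjusted p 0.0153) and Polr1c, a subunit of RNA polymerases I and III (-1.29, adjusted p 0.00802). In the Gabpb1 cross stages none was called and the median was 0.05. Between the crosses all 29 were below 0, with a median of -0.66, and 4 (Npm1, Nhp2, Polr1c and Bysl) were called, all lower, beside 0.674% of genes tested.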

How the data were processed

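PolyA RNA of 19 single embryos, amplified over 16 PCR cycles, was sequenced with paired reads of 50 and 25 bases, per the labels' protocols. The submitters' processing notes name Trimmomatic, Trim Galore, cutadapt, STAR, featureCounts and build mm10; settings are not given in the sources used here. The authors deposited raw counts per gene with merged exon lengths, in a table whose name announces FPKM; the whole numbers and unequal totals show counts. The 92 ERCC rows were kept out of library sizes. Since PCR reads carry no molecular identifiers, counts are not independent molecules. Replicates are separate embryos, with no label to tell which of them share a fertilisation.

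From these counts CPM (TMM) and FPKM were computed. Genes with an FPKM of 1 or more in at least 2 embryos were tested (18410 of 39262 with any count) with edgeR 4.0.16 (R 4.3.3): quasi-likelihood F test, 1 mean for each of 7 groups over 19 embryos, Benjamini-Hochberg adjustment over all genes tested, calls at an adjusted p under 0.05. Every adjusted p is from this test unless DESeq2 1.42.0 is named. SE is the log2 fold change over the square root of F. The method was tested on simulated data.

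Named are the stalk genes with Rpsa, Rps6 and Rpl22, the paralogs, the 3 highest and lowest canonical genes by mean FPKM and by SD, and per comparison the called members (if over 6, the 3 largest falls and rises), or the 2 with the smallest p. X-linked members and others outside this rule were chosen after their values were seen. Some genes that the rule names are not reported here. Members, lists and motifs were chosen with earlier results of these data known. Promoters are RefSeq sequences. Alternatives were DESeq2, other filters, other scalings, compared groups alone, a replicate block, each embryo left out and, added later, a Y-linked covariate.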

Additional observations from a re-analysis of the deposited data

How the results depend on the processing

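In simulated data for the Gabpb1 KO comparison, 6%, 58% and 84% of genes changed by 1, 2 and 3 on the log2 scale were found among 18410 genes. With DESeq2 the members called were 2 in the Alyref KO, 3 in the labelled Gabpb1 KO, 19 between the Alyref cross stages, 8 between the crosses, 1 in the difference between KO effects and 1 in the difference between stage effects, beside 3.31%, 8.1%, 22.7%, 11%, 5.77% and 2.07% of all genes it tested. With ERCC scaling 0 were called between the Alyref cross stages and 0 between the crosses. Other counts between the Alyref cross stages were 6 with the Y-linked covariate, 0 with the compared groups alone, 4 without the filter and 4 with total counts as library size. Between the crosses they were 2 with the FPKM minimum of 5, 0 with the compared groups alone, 2 without the filter and 2 with total counts. In the labelled Gabpb1 KO the FPKM minimum of 5 gave 1. The cause of these shifts was not tested.

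Under ERCC scaling the member medians were -0.153 in the labelled Gabpb1 KO, -0.577 between the Alyref cross stages, -0.84 between the Gabpb1 cross stages, 0.066 between the crosses, 0.092 in Alyref cross against WT blastocysts, -0.052 in the difference between KO effects and -0.279 in the difference between stage effects. Member counts per ERCC count differed on the log2 scale by -0.432, -0.547, -0.94, 0.181 and 0.125 in the first 5 of these. Rps20 (-0.464) and Rps28 (-0.494) reversed between the Gabpb1 cross stages. With each embryo left out in turn, calls ran from 1 to 24 between the Alyref cross stages, 0 to 8 between the crosses, 0 to 1 in the labelled Gabpb1 KO (1 without its first KO morula), 0 to 1 in the difference between KO effects and 0 to 2 in that between stage effects (1 and 2 without the third Alyref cross non-KO morula). Medians ran from -0.428 to -0.198, from -0.554 to -0.282 and, for the difference between KO effects, from 0.213 to 0.584 (0.213 without the first and 0.584 without the second Alyref KO morula). Where an arm is left with 1 embryo, it is assumed to vary like the other groups. Rpl36a in the Alyref KO ran from -0.744 to 0.011, reversing without the first KO morula.

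The replicate numbers of the labels did not pair the embryos: same-numbered embryos correlated at -0.156 to 0.168 in their deviations from group means. With the replicate block 6 members were called between the Alyref cross stages and 2 between the crosses.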
